A study of Mus musculus with 5 samples.

Results

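A set of 9 genes of the mitochondrial permeability transition and of mitochondrial calcium handling were followed in 5 RNA-seq libraries. They are the voltage-dependent anion channels Vdac1, Vdac2 and Vdac3, the phosphate carrier Slc25a3, the ADP/ATP carriers Slc25a4 and Slc25a5, and the calcium genes Mcu, Micu2 and Letm1. They were taken by symbol, and each of the 9 has 1 row among the 29267 gene rows of each deposited table. The libraries came from mouse embryonic fibroblasts (MEFs, primary connective-tissue cells of the embryo) of the ICR strain that were being reprogrammed. At day 4, 1 library came from cells expressing CypD (cyclophilin D, the product of Ppif) and 1 from cells expressing Flag as its control. At day 8, 1 library came from untreated control cells, 1 from cells given mastoparan (a peptide of wasp venom) and 1 from cells given paraquat (a redox-cycling herbicide). The genotype label of the 3 day-8 libraries also names CypD expression, while the design text of the series ties CypD and Flag to day 4. The labels used here state no doses, no reprogramming factors and no number of pooled embryos. With 1 library per group no difference was tested, and every interval below covers counting error only.

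These genes sit on the route by which metabolites and calcium enter and leave a mitochondrion. VDACs are the barrel-shaped channels of the outer membrane, the ADP/ATP carriers exchange ADP for ATP across the inner membrane, and the phosphate carrier brings in the phosphate for ATP synthesis. Mcu forms the pore of the calcium uniporter, Micu2 takes part in gating it according to calcium outside the inner membrane, and Letm1 is an inner-membrane protein of cation exchange. The permeability transition is the opening of a large unselective pore in the inner membrane under calcium load and oxidative stress. Cyclophilin D promotes this opening, and VDACs, ADP/ATP carriers and the phosphate carrier have each been proposed as parts or regulators of the pore, whose make-up is debated. The mitoflash named in the series title is a short-lived flash of a fluorescent reporter in a single mitochondrion, and pore opening has been proposed as one trigger of it.

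Positions are on GRCm38 (mm10) by the GENCODE M21 annotation, and each spans a whole protein-coding gene. The channels lie at chromosome 11, 52360860 to 52389397, plus strand (Vdac1, ENSMUSG00000020402), chromosome 14, 21825238 to 21845879, plus strand (Vdac2, ENSMUSG00000021771) and chromosome 8, 22577075 to 22593813, minus strand (Vdac3, ENSMUSG00000008892). The carriers lie at chromosome 10, 91116574 to 91124059, minus strand (Slc25a3, ENSMUSG00000061904), chromosome 8, 46206797 to 46211284, minus strand (Slc25a4, ENSMUSG00000031633) and chromosome X, 36795651 to 36798807, plus strand (Slc25a5, ENSMUSG00000016319). The calcium genes lie at chromosome 10, 59446984 to 59616692, minus strand (Mcu, ENSMUSG00000009647), chromosome 14, 57916261 to 57999262, minus strand (Micu2, ENSMUSG00000021973) and chromosome 5, 33739673 to 33782817, minus strand (Letm1, ENSMUSG00000005299).

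The 250 bases before the RefSeq start are shown for the pair of ADP/ATP carriers, whose levels differed between the days to unequal degrees, and for Mcu and Letm1, the calcium genes with the widest spread across libraries. The windows are RefSeq promoter sequence of GRCm38.p6, at chr8:46211063-46211312 on the minus strand (Slc25a4), chrX:36795347-36795596 on the plus strand (Slc25a5), chr10:59616693-59616942 on the minus strand (Mcu) and chr5:33782718-33782967 on the minus strand (Letm1). The RefSeq start lies at the GENCODE start for Mcu, 54 bases upstream of it for Slc25a5, and inside the GENCODE gene for Slc25a4 and Letm1, whose windows hold the first 222 and 100 bases of the gene. The sequences run 5′ to 3′ toward the RefSeq start, with CCAAT and GC boxes on either strand in capitals.
Slc25a4: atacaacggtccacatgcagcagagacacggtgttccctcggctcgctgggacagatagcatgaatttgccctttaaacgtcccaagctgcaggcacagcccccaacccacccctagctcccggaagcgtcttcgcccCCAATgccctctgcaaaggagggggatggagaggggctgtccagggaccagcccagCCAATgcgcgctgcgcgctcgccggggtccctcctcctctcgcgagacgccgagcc
Slc25a5: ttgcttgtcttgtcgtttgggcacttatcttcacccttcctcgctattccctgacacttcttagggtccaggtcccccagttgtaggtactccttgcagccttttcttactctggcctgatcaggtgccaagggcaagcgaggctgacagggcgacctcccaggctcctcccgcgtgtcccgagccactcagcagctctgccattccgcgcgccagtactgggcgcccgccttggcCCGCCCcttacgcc
Mcu: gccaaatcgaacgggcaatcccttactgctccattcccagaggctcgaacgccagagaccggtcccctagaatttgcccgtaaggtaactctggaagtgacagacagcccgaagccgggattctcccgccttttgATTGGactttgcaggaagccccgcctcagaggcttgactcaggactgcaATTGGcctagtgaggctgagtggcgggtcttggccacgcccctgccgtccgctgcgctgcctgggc
Letm1: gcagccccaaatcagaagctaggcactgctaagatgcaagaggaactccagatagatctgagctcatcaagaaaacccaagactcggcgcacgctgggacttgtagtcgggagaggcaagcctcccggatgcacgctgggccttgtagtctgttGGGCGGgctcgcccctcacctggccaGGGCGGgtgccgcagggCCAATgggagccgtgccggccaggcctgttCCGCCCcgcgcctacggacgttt

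Slc25a4 and Mcu each held 2 CCAAT boxes and no GC box, Slc25a5 held 1 GC box and no CCAAT box, and Letm1 held 3 GC boxes and 1 CCAAT box. Of the 9 genes 7 had windows, 8 in all because Vdac1 has 2. The letters searched on both strands were CCAAT (in 33.8% of all 32851 RefSeq windows of this length), GGGCGG (GC box, 32.7%), CGCATGCG (core of the NRF1 motif, 1.55%), CCGGAAGT (ETS core, 2.88%) and AAGATGGC (YY1 core, 1.56%). The E-box was searched as CACGTG (6.02%), and the TATA box as TATAAA (12.4%). GC boxes were found in 5 and CCAAT boxes in 3 of the 8 windows, the other 5 motifs in none, and no 2 matches overlapped. GC content in the 8 windows ran from 60.4% to 68.4%, where the median of all windows was 52.4%.

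Per transcript length, the carriers were the most abundant of the 9 genes and the uniporter pore and Letm1 the least. Mean deposited TPM (a level corrected for transcript length) over the 5 libraries was 717 for Slc25a3, 681 for Slc25a5 and 589.9 for Slc25a4. The channels followed with 364 for Vdac1, 281 for Vdac2 and 153 for Vdac3, then Micu2 with 68.5, Mcu with 20.6 and Letm1 with 19.7. Among all genes averaging 1 CPM or more, mean TPM stood at percentile 98.7 for Slc25a3 and 92.2 for Vdac3, but at 58.4 for Mcu and 57.4 for Letm1. The order of the 3 carriers was not the same in every library, nor was that of Mcu and Letm1. Vdac1 lay above Vdac2 in each of the 5 libraries, although their ranges across libraries overlapped. Vdac3 (122 to 184 TPM) lay below Vdac2 (216 to 328) and above Micu2 (59.8 to 81.4) in every library.

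**Figure D1:**
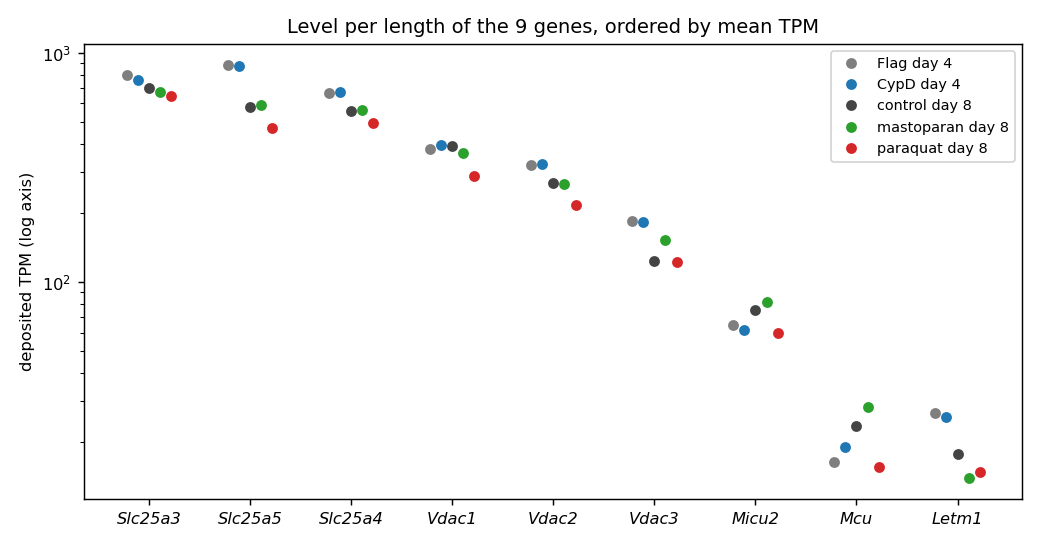
Deposited TPM (log axis) of the 9 genes, ordered by mean TPM, with 1 point per library. The 3 carriers span 468 to 886 TPM, while Mcu and Letm1 stay between 13.9 and 28.4.

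Total expected counts ranged from 2426015 to 3426702 per library, and a floor of 3 counts equalled 0.869 to 1.30 CPM (counts for each 1000000 of a library scaled by TMM, a method that removes composition differences). The 10 fibroblast markers were found in all 5 libraries, with summed levels of 6777 to 7083 CPM. The 5 epithelial markers summed to 148 and 163 CPM at day 4 and 424 to 484 at day 8, none of them at 0. Of the 3 striated muscle markers, Ckm was at 0 in all libraries and Myh3 in all but paraquat, and Acta1 had 7 or 8 counts. Neural markers summed to 73.4 and 69.5 CPM at day 4 and 26.4 to 38.9 at day 8. Among them Tubb3 had 146 and 181 counts at day 4 and 34 to 58 at day 8, while Sox1 was higher with mastoparan and paraquat (5.97 and 6.50 CPM) than at day 4 (3.55 and 3.47). Pluripotent markers summed to 5.13 and 3.76 CPM at day 4 and 7.36 to 9.73 at day 8. Most of this came from Nanog, which had 10 to 21 counts and overlapped between the days in CPM. The 4 blood and endothelial markers summed to 6.71 and 9.85 CPM at day 4 and 15.2 to 19.3 at day 8, mostly from Cd68, with Cdh5 at 0 and Ptprc at no more than 1 count. Ppif checks the CypD label. It had 112 counts with Flag against 2629 with CypD, and 90, 95 and 79 in the control, mastoparan and paraquat libraries (44.2 CPM with Flag and 29.2 to 34.2 CPM at day 8). The day-8 groups are therefore called by their treatment labels.

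On scaled counts Vdac1 and Vdac2, the 2 major outer-membrane channels here, were nearly level across the libraries, and Vdac3 was the one that varied. Vdac1 stood at 494 CPM in the Flag and 531 in the CypD library at day 4, and 512 in the control, 506 in the mastoparan and 478 in the paraquat library at day 8, so its highest library was 1.11 times its lowest. Vdac2, which also restrains the cell-death protein Bak, stood at 292 CPM in the Flag and 311 in the CypD library at day 4, and 277 in the control, 284 in the mastoparan and 284 in the paraquat library at day 8 (1.12 times). On deposited TPM Vdac1 ran from 290 with paraquat to 397 with CypD. By the same measure Vdac2 was at 324.5 with Flag and 328 with CypD. In the control, mastoparan and paraquat libraries it was at 271, 266 and 216. Its deposited mean transcript length was 1393 bases with Flag and 1603 with paraquat. Vdac3, the least studied isoform, stood at 169 CPM in the Flag and 174 in the CypD library at day 4, and 117 in the control, 151 in the mastoparan and 143 in the paraquat library at day 8. On scaled counts the control at day 8 was the lowest for Vdac3, and its Poisson interval (106 to 130.1 CPM) ended below that of the mastoparan library (137 to 166). On deposited TPM Vdac3 was at 123.2 in the control, 152.6 in the mastoparan and 122.5 in the paraquat library. As a share of the TPM of the 3 channels, Vdac3 made up 20.7% with Flag and 20.2% with CypD at day 4, 15.7% in the control at day 8, and 19.5% and 19.5% with mastoparan and paraquat. Vdac1 held 42.8% to 49.8% and Vdac2 34.0% to 36.5%. Of the 49-base windows of Vdac3 transcripts, 49.4% also occur in 3 pseudogenes that have no row in the tables used here (Vdac3-ps1 alone holds 45.5%), so its counts are uncertain. This share was under 5% for Vdac1 and Vdac2.

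**Figure D2:**
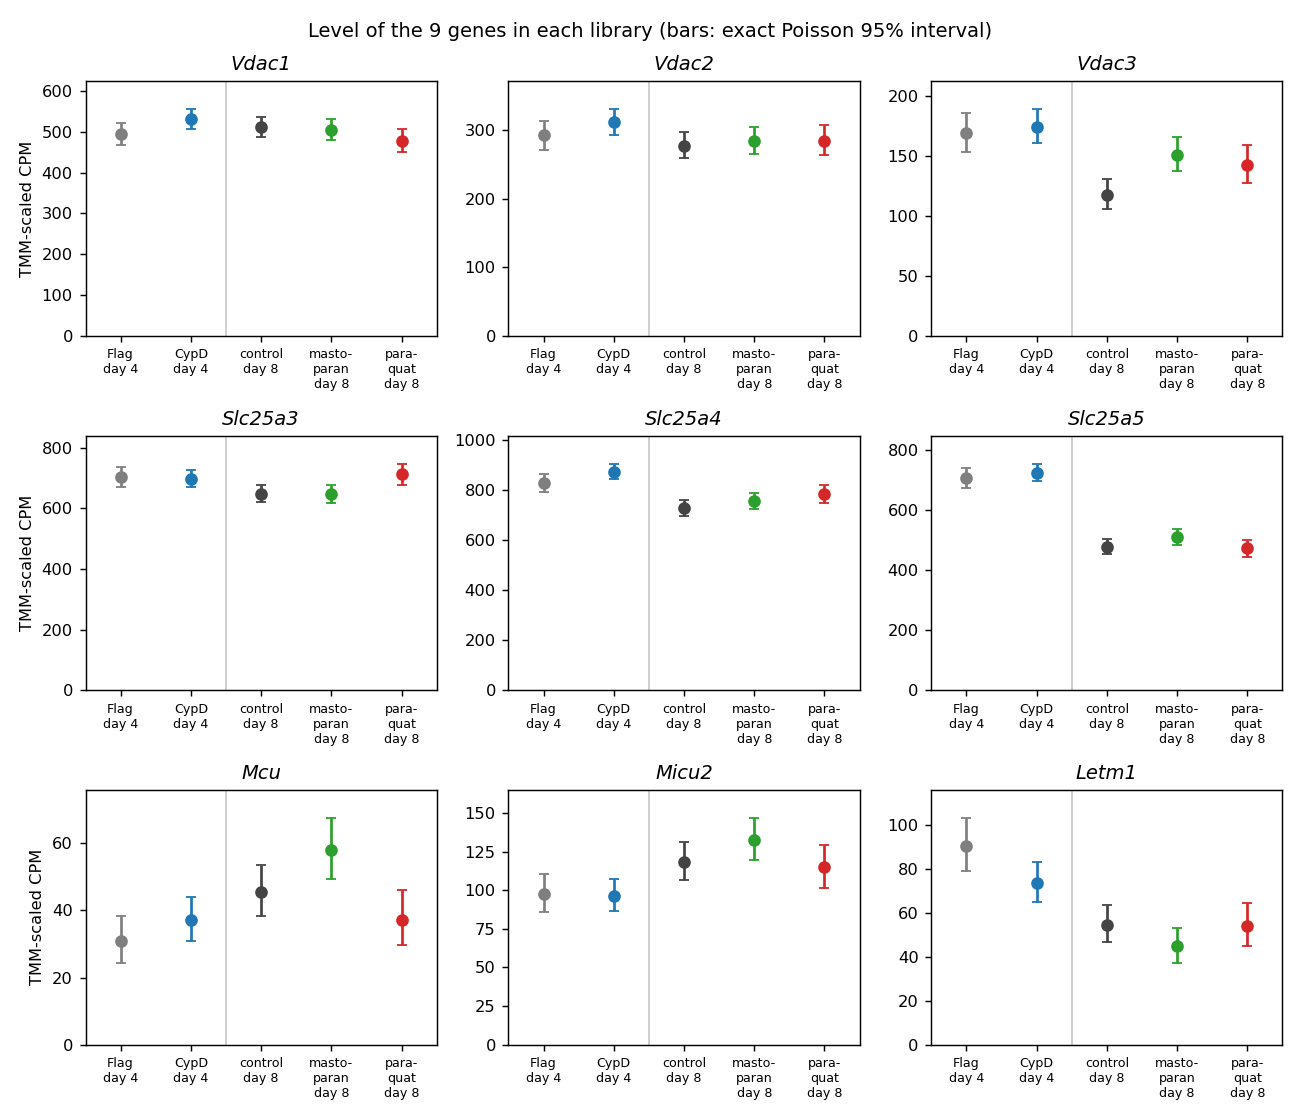
TMM-scaled CPM of each gene in the 5 libraries, with exact Poisson 95% intervals and a grey line between day 4 and day 8. Slc25a5 and Letm1 are lower in all 3 day-8 libraries, Mcu peaks in the mastoparan library at 57.9 CPM, and Vdac1 and Vdac2 are nearly flat.

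Among the carriers, on scaled counts Slc25a5 separated the days and Slc25a3 did not. Slc25a5, the ADP/ATP carrier of proliferating cells, stood at 706 CPM in the Flag and 724 in the CypD library at day 4, and 477 in the control, 509 in the mastoparan and 472 in the paraquat library at day 8. Both day-4 libraries lay above all 3 day-8 libraries, with the nearest pair 1.38-fold apart. Slc25a4, the form typical of heart and muscle, stood at 829 CPM in the Flag and 874 in the CypD library at day 4, and 728 in the control, 757 in the mastoparan and 784 in the paraquat library at day 8. Its day-4 libraries were also the higher ones, but on scaled counts the nearest pair was only 1.06-fold apart. On deposited TPM Slc25a4 was at 663 with Flag and 674 with CypD, and 559, 560 and 493 in the control, mastoparan and paraquat libraries. Slc25a5 was at 886 and 877, and 579, 593 and 468, in the same order. Slc25a3 stood at 703 CPM in the Flag and 697 in the CypD library at day 4, and 648 in the control, 647 in the mastoparan and 712 in the paraquat library at day 8. On scaled counts the paraquat library was thus its highest. On deposited TPM Slc25a3 was at 800 with Flag and 760 with CypD, and 704, 675 and 647 in the control, mastoparan and paraquat libraries. By that measure Slc25a3 did separate the days, and paraquat was its lowest library. Its muscle and ubiquitous splice forms are not separated in gene-level counts. Of the Slc25a5 windows, 34.5% recur in 10 pseudogenes without a row in the tables used here, the largest single share being 21.6%. No Slc25a4 window did, and no window was shared between the 2 carriers.

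The ratio of Slc25a5 to Slc25a4 within a library needs no scaling between libraries. The ratio can still carry a trend with transcript length, since mean lengths were 1238 and 1921 bases, and it was not corrected for this. On TPM it was 1.34 (1.254 to 1.42) in the Flag and 1.30 (1.23 to 1.37) in the CypD library, where Slc25a5 was the more abundant carrier. At day 8 it was 1.04 (0.970 to 1.11) in the control, 1.06 (0.990 to 1.13) with mastoparan and 0.948 (0.879 to 1.02) with paraquat, so all 3 day-8 intervals held a ratio of 1. From counts, the ratio was 1.30 times lower (1.18 to 1.42) in the day-8 control than in the Flag library. The ratio of Vdac3 to Vdac1 was 1.30-fold higher (1.11 to 1.53) in the mastoparan library and 1.30-fold higher (1.10 to 1.54) in the paraquat library than in the control they share. These gene pairs were chosen after their values were seen.

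**Figure D3:**
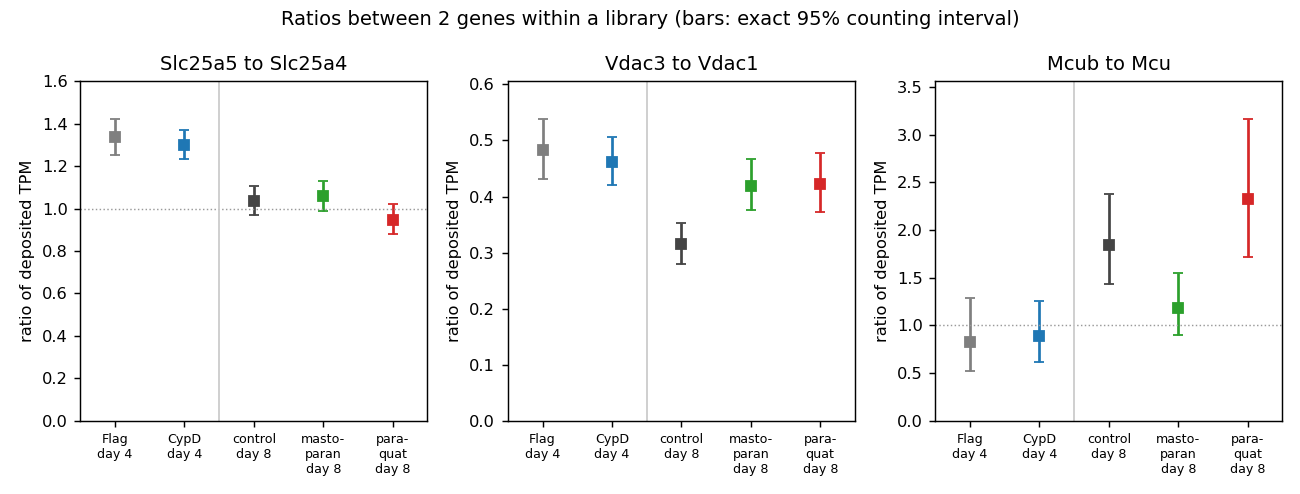
Ratio of deposited TPM of 2 genes within each library, with exact 95% counting intervals, a dotted line at 1 and a grey line between the days. Slc25a5 to Slc25a4 is 1.30 to 1.34 at day 4 and 0.948 to 1.06 at day 8, and Mcub to Mcu is lowest at day 4.

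On scaled counts Mcu and Letm1 had the widest spread of the 9 genes, while Micu2 varied less than Slc25a5 and Vdac3. Mcu and Letm1 also had the fewest counts, which widens their spread. On deposited TPM Slc25a5 (468 to 886) spanned a wider fold than Mcu (15.55 to 28.45). Mcu stood at 30.8 CPM in the Flag and 37.1 in the CypD library at day 4, and 45.4 in the control, 57.9 in the mastoparan and 37.3 in the paraquat library at day 8, from 78, 128, 140, 165 and 86 counts in that order. Its highest library, mastoparan, was 1.88 times its lowest, Flag. Micu2, a gatekeeper that holds the uniporter closed at resting calcium, stood at 97.5 CPM in the Flag and 96.4 in the CypD library at day 4, and 118 in the control, 133 in the mastoparan and 115 in the paraquat library at day 8, with mastoparan again highest. Letm1 stood at 90.8 CPM in the Flag and 73.8 in the CypD library at day 4, and 54.8 in the control, 44.9 in the mastoparan and 54.2 in the paraquat library at day 8, highest in the Flag library and lowest with mastoparan, 2.02 times apart. Counts of Letm1 were fractional in all 5 files before rounding, and its deposited mean transcript length ranged from 4223 to 5115 bases, so its TPM also carries the estimate of its isoforms. No window of Mcu or Micu2 was shared with another gene.

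For CypD against Flag at day 4, none of the 9 genes reached 1.5-fold in either direction, while Ppif itself was 17.2-fold higher (95% interval 14.3 to 21.0). Among all genes averaging 1 CPM or more, 5.22% were at least 1.5-fold higher and 5.75% at least 1.5-fold lower. At 20 CPM or more, a level that all 9 genes passed, these shares were 0.281% and 0.472%. The median log2 ratio of the 9 genes was 0.05 (range -0.30 to 0.26), beside -0.02 over all genes averaging 1 CPM or more. Letm1 alone of the 9 had a counting interval that did not hold 1. The share of all genes with such an interval was not counted. Letm1 was 1.23 times lower (1.02 to 1.47) in the CypD library. Its log2 ratio was -0.30 on counts and -0.07 on deposited TPM, where its mean transcript length was 5115 bases with Flag and 4223 with CypD. Mcu had a ratio of 1.20 (0.902 to 1.62), and the other 7 genes had ratios from 0.989 (Micu2) to 1.07 (Vdac1). For Vdac1 the interval ran from 1.00 to 1.16, and for Slc25a5 from 0.965 to 1.09, both ending under 1.2-fold.

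For mastoparan against control at day 8, Vdac3 and Mcu were the 2 genes whose counting interval did not hold 1. Both were higher in the mastoparan library, and the share of all genes with such an interval was not counted. Vdac3 was 1.29-fold higher (95% interval 1.11 to 1.48), from 430 against 362 counts. Mcu was 1.28-fold higher (95% interval 1.01 to 1.61), from 165 against 140. None of the 9 reached 1.5-fold, beside 5.29% of all genes higher and 5.7% lower (0.276% and 0.326% at 20 CPM or more). At 5/4-fold, the count was 2 higher and 0 lower of 9, beside 3.75% and 4.0% of all genes at 20 CPM or more. The median log2 ratio of the 9 genes was 0.06 (range -0.28 to 0.36), beside 0.01 over all genes averaging 1 CPM or more. Letm1 had a ratio of 0.819 (0.646 to 1.04) and Micu2 a ratio of 1.12 (0.968 to 1.30), and both intervals held 1.

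For paraquat against control at day 8, again none of the 9 genes reached 1.5-fold, although this pair of libraries differed more widely over all genes. The background was 8.22% higher and 10.5% lower, or 3.6% and 3.34% at 20 CPM or more. The median log2 ratio of the 9 genes was -0.02 (range -0.28 to 0.28), beside -0.03 over all genes averaging 1 CPM or more. Vdac3 was 1.21-fold higher (95% interval 1.04 to 1.41) in the paraquat library, Slc25a3 1.10-fold higher (95% interval 1.03 to 1.17) and Slc25a4 1.08-fold higher (95% interval 1.01 to 1.15). Mcu had a ratio of 0.821 (0.620 to 1.08), from 86 against 140 counts. With the median log2 ratio of genes of like transcript length subtracted, which removes a trend with length between these libraries, Slc25a3 moved from 0.13 to -0.00, Slc25a4 from 0.11 to 0.06, Slc25a5 from -0.02 to -0.23 and Letm1 from -0.02 to 0.15. Vdac3 stayed on the same side (0.28 and 0.20). On deposited TPM, where the median of all genes was -0.28, the log2 ratios of Vdac3, Slc25a3 and Slc25a4 turned to -0.01, -0.12 and -0.18, or 0.27, 0.16 and 0.10 relative to that median. On library totals Slc25a4 was at 0.00. The control library enters both drug comparisons, and its low Vdac3 value on scaled counts is part of both ratios.

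Mastoparan set against paraquat leaves that control out. Mcu was then 1.55-fold higher (95% interval 1.19 to 2.04) in the mastoparan library, the 1 gene of 9 past 1.5-fold, beside 9.27% of all genes higher and 7.72% lower (2.76% and 2.22% at 20 CPM or more). With the length trend removed its log2 ratio went from 0.63 to 0.54, which is under 1.5-fold. Slc25a3 was 1.10 times lower (1.03 to 1.18) in the mastoparan library, with a log2 ratio of -0.14 that went to -0.03 with the length trend removed. Vdac2 had a ratio of 1.00 (0.901 to 1.11) and Vdac3 a ratio of 1.06 (0.915 to 1.23). The median log2 ratio of the 9 genes was 0.08 (range -0.27 to 0.63), beside 0.02 over all genes averaging 1 CPM or more.

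**Figure D4:**
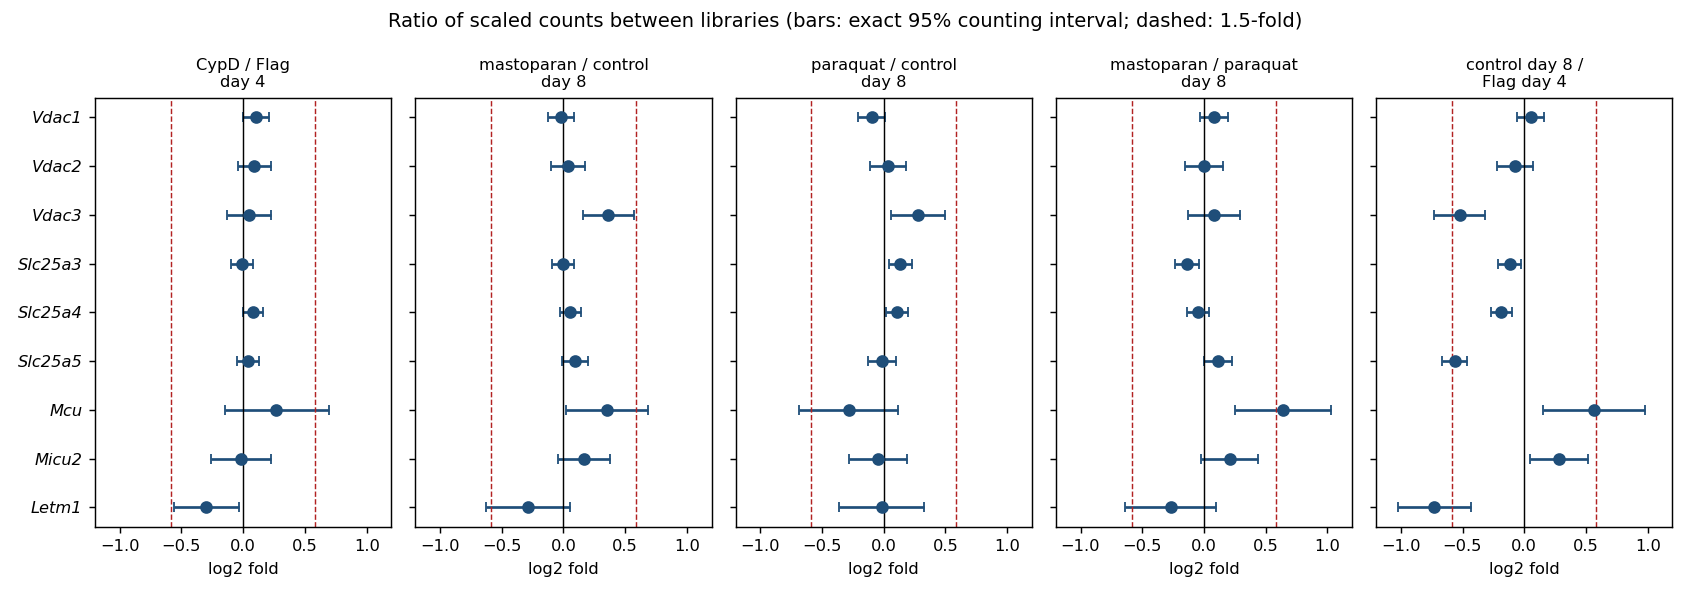
Log2 ratio of scaled counts for each gene in the 5 library pairs, with exact 95% counting intervals and dashed lines at 1.5-fold. Mcu passes 1.5-fold for mastoparan against paraquat and Letm1 for the day-8 control against Flag, and no gene does so for CypD against Flag.

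Across the days, the pair of calcium-uniporter genes was higher at day 8, while Letm1, both ADP/ATP carriers, Vdac3 and Vdac2 were lower. Of the 9 genes, 2 (Mcu and Micu2) had all 3 day-8 values above both day-4 values, and 5 had all of them below. Over all genes averaging 1 CPM or more these shares were 28.5% and 28.1%, and at 20 CPM or more 26.6% and 34.9%. Separation for Mcu was narrow, since the paraquat library (37.3 CPM) was 1.01 times the CypD library (37.1 CPM). For Vdac2 the nearest pair was 1.03-fold apart. On library totals 1 gene stayed above, and on deposited TPM 0. Under both of these settings Slc25a3 joined the 5 genes below, and the all-gene shares under them are not given here. The day-8 libraries differ from the day-4 libraries in treatment as well as day, and in bulk RNA fewer cells of a type and less RNA per cell cannot be told apart. The summed epithelial, blood and pluripotent markers were higher at day 8, the pluripotent ones at few counts. Tubb3 was lower, and single fibroblast markers moved both ways. Their part in these differences was not tested.

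Between single libraries, the untreated control at day 8 differed from the Flag library most in Letm1, Slc25a5, Mcu and Vdac3. Letm1 was 1.66 times lower (1.35 to 2.03) at day 8, from 169 against 230 counts. Slc25a5 was 1.48 times lower (1.38 to 1.58) and Vdac3 1.44 times lower (1.24 to 1.66). Mcu was 1.48-fold higher (95% interval 1.11 to 1.97), from 140 against 78 counts, and Micu2 1.21-fold higher (95% interval 1.03 to 1.43). Slc25a4 was 1.14 times lower (1.07 to 1.21) and Slc25a3 1.08 times lower (1.02 to 1.16), while Vdac1 and Vdac2 had intervals holding 1. Past 1.5-fold were 0 genes higher and 1 lower (Letm1), beside 18.6% and 12.9% of all genes, or 9.45% and 9.77% at 20 CPM or more. At 5/4-fold the counts were 1 higher and 3 lower, beside 19.3% and 25.6% of all genes at 20 CPM or more. With the length trend removed Slc25a5 joined Letm1 there, at a log2 ratio of -0.62. The median log2 ratio of the 9 genes was -0.12 (range -0.72 to 0.55), beside -0.00 over all genes averaging 1 CPM or more.

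The other genes of the uniporter and of calcium handling were taken as a list of 18. Of these, 7 had all day-8 values above both day-4 values and 3 below, beside 28.5% and 28.1% of all genes. Mcub, a pore-like subunit that dampens the uniporter, had 29 and 45 counts at day 4 and 118, 82 and 90 in the control, mastoparan and paraquat libraries, and was 3.34-fold higher (95% interval 2.21 to 5.21) in the day-8 control than in the Flag library. The calcium-regulated carrier gene Slc25a23 was 2.03-fold higher (95% interval 1.58 to 2.61) in the same pair, and Slc25a24, another calcium-regulated carrier, 1.54 times lower (1.19 to 1.98). Hspa9, the mitochondrial Hsp70, was at 554 and 549.6 CPM at day 4 and 365 to 419.7 at day 8. In this pair of libraries 3 of the 18 were at least 1.5-fold higher (Mcub, Slc25a23 and Letm2, a relative of Letm1) and 1 lower (Slc25a24), near the 18.6% and 12.9% of all genes, with a median log2 ratio of 0.12.

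The products of Mcub and Mcu enter the same complex, and their ratio within a library was compared. Like the gene pairs above, this pair was chosen after its values were seen. On TPM, Mcub to Mcu was 0.827 (0.520 to 1.28) in the Flag and 0.885 (0.616 to 1.252) in the CypD library. It was 1.84 (1.43 to 2.37) in the day-8 control, 1.18 (0.895 to 1.55) with mastoparan and 2.33 (1.71 to 3.17) with paraquat. From counts the ratio was 2.27-fold higher (1.35 to 3.85) in the day-8 control than in the Flag library, and 2.11 times lower (1.39 to 3.19) with mastoparan than with paraquat. It was not corrected for the trend with length. Mcub transcripts averaged 1237 bases with mastoparan and 1318 with paraquat, and those of Mcu 2872 in both. The ratio of Mcu to Micu2 ran from 0.253 to 0.350, with overlapping intervals.

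**Figure D5:**
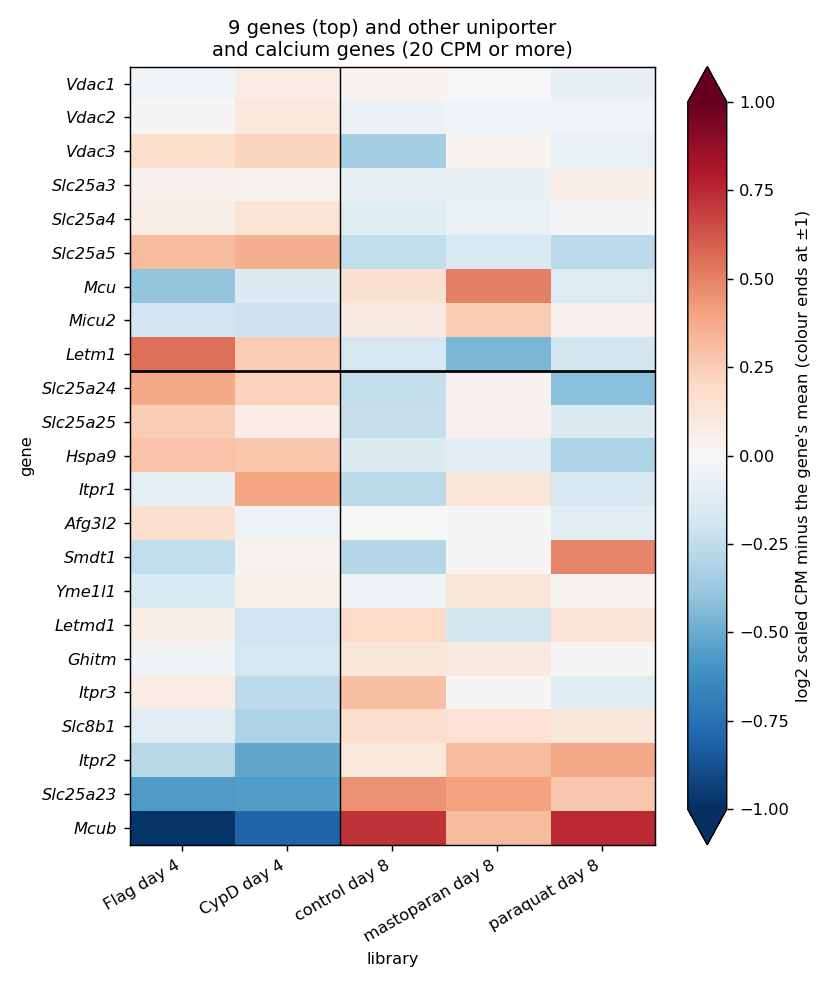
Log2 scaled CPM minus each gene's mean over the 5 libraries, for the 9 genes (above the black line) and the reported other uniporter and calcium genes averaging 20 CPM or more (sorted by the day-8 control against Flag). Mcub and Slc25a23 lie below their means at day 4 and above at day 8, with Mcub at 11.4 CPM in the Flag and 38.3 in the control library.

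In the drug and CypD comparisons the counts of these 18 genes past 1.5-fold are read beside the shares of all genes, higher and lower. Those shares were 5.22% and 5.75% for CypD against Flag, 5.29% and 5.7% for mastoparan and 8.22% and 10.5% for paraquat against control, and 9.27% and 7.72% for mastoparan against paraquat. For CypD against Flag the count was 0 higher and 0 lower, with Itpr1, a calcium-release channel of the endoplasmic reticulum, 1.41-fold higher (95% interval 1.02 to 1.96) and its relative Itpr3 1.26 times lower (1.09 to 1.46). Smdt1, the small EMRE subunit that the uniporter needs, was 1.22-fold higher (95% interval 1.01 to 1.48) there. For mastoparan against control it was 0 and 0, where Mcub had a ratio of 0.752 (0.560 to 1.01), Itpr1 a ratio of 1.32 (0.935 to 1.86) and Letmd1 a ratio of 0.766 (0.568 to 1.03). For paraquat against control it was 1 (Smdt1) and 1 (Letm2, 11 against 24 counts). Smdt1 was 1.71-fold higher (95% interval 1.42 to 2.05) in that pair, but its transcript is short and its log2 ratio went from 0.77 to 0.32 with the length trend removed. It also shares 14.5% of its windows with Pheta2. Itpr3 was 1.34 times lower (1.16 to 1.55) with paraquat, and Itpr2 had a ratio of 1.21 (0.898 to 1.63). With the length trend removed their log2 ratios went from -0.42 to -0.18 and from 0.27 to 0.52. Mastoparan against paraquat gave 2 (Mcur1, a uniporter regulator with 55 against 28 counts, and Letm2) and 0. Letm2 and Mcur1, under 20 CPM, were named after their values were seen. There Smdt1 was 1.39 times lower (1.17 to 1.66), at a log2 ratio of -0.10 with the length trend removed. Slc25a24 was 1.38-fold higher (95% interval 1.03 to 1.86) and Mcub had a ratio of 0.738 (0.540 to 1.01). With the length trend removed their log2 ratios went from 0.46 to 0.30 and from -0.43 to -0.27.

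Of 19 measured pore candidates and regulators, 4 were at least 1.5-fold higher (Ckmt1, Hk1, Tspo and Atp5g2) and 1 lower (Ppif) in the day-8 control than in the Flag library, beside 18.6% and 12.9% of all genes. Hexokinase 1 (Hk1), which docks on VDACs, was 1.74-fold higher (95% interval 1.53 to 1.99), and the outer-membrane translocator protein gene Tspo 1.72-fold higher (95% interval 1.49 to 1.99). Atp5g2, a c-ring gene of the ATP synthase, was 1.68-fold higher (95% interval 1.54 to 1.84) but shares 36.8% of its windows with a near copy and is uncertain. The mitochondrial creatine kinase gene Ckmt1, whose product bridges ADP/ATP carriers and VDACs and which falls below the level used for naming, was singled out after its values were seen. It had 5 and 11 counts at day 4 and 84, 88 and 70 at day 8, and the control was 13.8-fold higher (95% interval 5.69 to 43.6) than Flag. All 3 day-8 libraries were thus far above both day-4 libraries, in the direction opposite to that of Slc25a4 and Slc25a5.

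In the treatment pairs fewer of this list, as of all genes, were past 1.5-fold. The all-gene shares, higher and lower, were 5.22% and 5.75% for CypD against Flag and 5.29% and 5.7% for mastoparan against control. They were 8.22% and 10.5% for paraquat against control, and 9.27% and 7.72% for mastoparan against paraquat. For CypD against Flag, Ppif was the 1 gene past 1.5-fold, followed by Atp5g2 at a log2 ratio of 0.55 and Hk1 at -0.37. For mastoparan against control 0 of 19 were past it in either direction, and at 20 CPM or more the most extreme were Atp5g2 at -0.24, the protease gene Spg7 at -0.22 and hexokinase 2 (Hk2) at -0.22. For paraquat against control Atp5k, a short ATP synthase subunit gene, was 1.79-fold higher (95% interval 1.58 to 2.04), with Atp5o at 0.51 and the pore-forming death gene Bax at 0.48. With the length trend removed these 3 log2 ratios were 0.31, 0.15 and 0.12. In mastoparan against paraquat Atp5k stood at -0.68, Atp5o at -0.42 and Tspo at -0.40, or -0.24, -0.13 and -0.11 with the trend removed. Atp5o shares 35.4% of its windows with other genes and is uncertain.

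The 3 carriers were set beside the other SLC25 carriers, 34 of which were measured in all pairs but mastoparan against paraquat (33). Between the day-8 control and Flag 7 of these were at least 1.5-fold higher and 3 lower (Slc25a10, Slc25a15 and Slc25a32), beside 18.6% and 12.9% of all genes. The dicarboxylate carrier gene Slc25a10 was 2.08 times lower (1.65 to 2.65) and the ornithine carrier gene Slc25a15 1.65 times lower (1.15 to 2.38). In the other pairs the all-gene shares past 1.5-fold, higher and lower, were 5.22% and 5.75% for CypD against Flag and 5.29% and 5.7% for mastoparan against control. They were 8.22% and 10.5% for paraquat against control, and 9.27% and 7.72% for mastoparan against paraquat. Over the days 10 of the 34 were above and 9 below, near the all-gene shares of 28.5% and 28.1%. For CypD against Flag 2 were at least 1.5-fold higher and 2 lower (Slc25a43 and Slc25a48, and Slc25a30 and Slc25a45), none with over 9 counts in either library, and at 20 CPM or more the most extreme included Slc25a44 at a log2 ratio of -0.39 and Slc25a10 at -0.27. For mastoparan against control the counts were 0 and 2 (Slc25a35 and Slc25a43), with Slc25a28, a mitochondrial iron importer, at -0.38, the glutamate carrier gene Slc25a22 at -0.25 and Slc25a40 at -0.18. For paraquat against control they were 2 (Slc25a14 and Slc25a29) and 3 (Slc25a30, Slc25a43 and Slc25a53). The iron importer gene Slc25a37 was 1.47 times lower (1.09 to 1.98) in that pair, Slc25a36 stood at -0.39 and the aspartate-glutamate carrier gene Slc25a12 at 0.32. With the length trend removed the log2 ratios of Slc25a37, Slc25a36 and Slc25a12 were -0.38, -0.17 and 0.27. For mastoparan against paraquat they were 4 (Slc25a30, Slc25a45, Slc25a48 and Slc25a53) and 2 (Slc25a14 and Slc25a29), with Slc25a37 at 0.49, Slc25a28 at -0.40 and Slc25a13 at 0.30. With the length trend removed Slc25a37, Slc25a28 and Slc25a13 were at 0.33, -0.31 and 0.23. Carriers in brackets under 20 CPM were named after their values were seen.

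The genes nearest in profile were sought for Letm1 and Mcu, the 2 with the widest range of scaled CPM. Likeness was the root mean square distance between log2 profiles over the 5 libraries, each centred on its mean, among 7680 genes averaging 20 CPM or more. For Letm1 the nearest were Fam206a (0.0384), Usp10, a deubiquitinase gene (0.0520), and Wdr46 (0.0560), where the median distance was 0.362. For Mcu they were the interferon receptor gene Ifnar2 (0.0834), Tmeff1 (0.0963) and the G-protein regulator gene Rgs16 (0.104), with a median distance of 0.374. The nearest of 7680 genes fall below the median by selection, and over 5 unreplicated libraries their likeness was not tested. Among the 9 genes themselves, Vdac2 and Slc25a4 had the closest profiles and Mcu and Letm1 the most distant.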

How the data were processed

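RNA-seq of 5 libraries was analysed from the deposited gene tables. Per the labels, Trizol and a TruSeq kit (1 ug of total RNA) were used. Bowtie2 2.2.5 and mm10 are named in the submitters' processing notes, with no counting program given in the sources used here. The deposited tables hold expected counts, TPM and FPKM per gene, with mean and effective transcript lengths, per the file headers. The deposited FPKM values were not used. Expected counts were rounded to whole counts and scaled by TMM factors (edgeR 4.0.16, R 4.3.3), which lay between 0.951 and 1.02.

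Gene IDs were matched to GENCODE M21 symbols (28756 of 29267 matched). Folds are ratios of scaled counts with 95% intervals by the exact Clopper-Pearson method on the split of counts. Log2 ratios carry a pseudocount of 0.5 CPM. The background was every gene averaging 1 CPM or more in the 2 libraries of a comparison. Amplified reads are not independent molecules, so intervals cover counting error only. Windows of 49 bases were compared with GENCODE M21 transcripts on both strands, in reference sequences of 82533 of the 84205 transcripts listed. The code was tested on simulated data. Python 3.11.15, numpy 2.4.6, scipy 1.17.1, pandas 2.3.3 and matplotlib 3.10.9 were used.

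Named genes are the 9 members, Ppif, the 3 genes at 20 CPM or more with the largest absolute log2 ratio per other list and comparison, and the 3 nearest profiles of the 2 members with the widest range. Some genes that this rule names are not reported here. The members and lists were chosen with earlier results of these data known. Alternatives tried were library totals, DESeq2 1.42.0 size factors, upper-quartile factors, deposited TPM, pseudocounts of 0.1 and 2 CPM, no filter or 20 CPM, a 5/4-fold threshold, removal of mitochondrial, rRNA and the 20 top genes, and subtraction of medians over 40 transcript-length bins. Leaving out each library in turn was added after seeing the data.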

Additional observations from a re-analysis of the deposited data

How the results depend on the processing

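No paired analysis was possible because each group has 1 library. The alternative of adding near copies was not run because no gene in the tables shared as much as 1% of the windows of any of the 9 genes. Of 360 ratios of single genes under 8 settings, 340 stayed inside their main counting interval and 20 did not, 14 of them on deposited TPM. The sign turned for 5 whose main interval did not hold 1. For paraquat against control these were Vdac3 (-0.0078), Slc25a3 (-0.12) and Slc25a4 (-0.18) on deposited TPM, and Slc25a3 (-0.00091) with the length trend removed. For mastoparan against paraquat it was Slc25a3 on deposited TPM (0.061, or -0.16 relative to all genes). On deposited TPM the median of all genes was -0.28 (paraquat against control) and 0.22 (mastoparan against paraquat). The medians of the 9 genes were -0.31 and 0.32 there, or -0.03 and 0.10 relative to that shift. On library totals the median of all genes for paraquat against control was -0.13. With the length trend removed, 0 of the 9 genes were at least 1.5-fold higher for mastoparan against paraquat (1 before), and 2 were lower for the day-8 control against Flag (1 before). A threshold of 5/4-fold gave 2 higher for mastoparan against control, and 1 higher and 3 lower for the day-8 control against Flag. Between the days, 1 gene (library totals) and 0 genes (deposited TPM) had all day-8 values above the day-4 values, against 2. Under both settings Slc25a3 joined the 5 genes whose day-8 values all lay below. Leaving out each library in turn gave 2 genes above each time and 5 to 6 below, with Vdac1 added without Flag and Slc25a3 added without paraquat. Dropping a library makes separation easier for any gene, and the all-gene shares under these settings are not given here. The share of all genes past 1.5-fold depended on the filter. For CypD against Flag it was 8.24% higher with no filter and 0.281% at 20 CPM or more. Depth limits Mcu and Letm1 most, with 78 to 165 and 125 to 255 counts per library.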
